A study of Bos taurus with 48 samples.

Results

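The miR-130 and miR-301 family was examined by its rows in a miRNA-seq table of cattle tissues. The members were chosen by name, as each row called bta-miR-130a, bta-miR-130b, bta-miR-301a or bta-miR-301b, and 4 of the 524 rows of the table fitted. No value entered that rule, but the family was proposed with earlier results of these data known, so the p-values given here describe the fits and are not independent evidence. All 4 members had reads in at least 6 of the 48 libraries.

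The 48 samples came from the liver, the mammary parenchyma, in which the ducts of the gland lie, and the mammary fat pad of cattle fed milk replacer ad libitum, a restricted amount of milk replacer, or a control diet. The liver had 6 ad libitum, 6 restricted and 5 control samples, the parenchyma 6, 6 and 3, and the fat pad 6, 6 and 4. Ad libitum and restricted samples together are called milk replacer samples (12 in each tissue). The labels give no further treatment or genotype. For age, breed and the content of the control diet, details were not given in the sources used here. Each label also holds a number, called a replicate below, which is not said to be an animal, so the p-values measure the spread between these samples. Each tissue was sampled as a mixture of cell types, and fewer cells of a type and less of a miRNA per cell cannot be told apart.

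MicroRNAs pair with target mRNAs mainly through the seed near their 5′ end and lower the stability and translation of those mRNAs. The members of this family share a seed and therefore many predicted targets. In human and mouse adipocytes miR-130 represses PPARG, the nuclear receptor that drives the formation of fat cells, and the family is also known in endothelial cells and in the response to TGF-beta. The genes lie at 3 places in the cattle annotation (RefSeq, ARS-UCD2.0, used for names and neighbours only). MIR130A has no other miRNA gene next to it, MIR130B lies next to MIR301B, and MIR301A lies inside the gene SKA2 together with MIR454, which belongs to the same seed family in mammals. miR-454 was not a member by the rule and serves below as a relative.

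The values are normalized read counts, that is, reads of a miRNA divided by the size factor of the library. Every value above 0 stood for at least 6 reads, so a value listed at 0 may hold up to 5 reads. The libraries were estimated to hold 826776 to 5146724 miRNA reads in the liver, 6193678 to 11291532 in the parenchyma and 2123962 to 9522666 in the fat pad. A value of 5 reads was equal to a normalized count of 4.73 to 31.0 in the liver, 1.32 to 2.89 in the parenchyma and 2.49 to 11.7 in the fat pad. The 3 control parenchyma libraries stood apart. The mean log2(value + 1) of 10 epithelial miRNAs was 10.85 to 11.81 in the 12 milk replacer parenchyma libraries, against 2.46 to 3.76 in the 3 control parenchyma libraries, and it was 0.42 to 3.03 in the milk replacer fat pad. Comparisons between tissues were therefore made on the 36 milk replacer samples. Fold changes are on the log2(value + 1) scale, from limma with Benjamini-Hochberg adjustment over all miRNAs tested, and a change passed the test at an adjusted p under 0.05.

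The family was dominated by miR-130a, which was above 0 in all 48 libraries with 21 to 631 reads. It made up 81.3% to 100% of the family sum in milk replacer liver and 67.0% to 88.8% in milk replacer parenchyma. In milk replacer fat pad it made up 85.1% to 100%. Where another member was listed at 0 the share is an upper limit, since that member may still hold some reads. miR-130a had 21 to 92 reads in milk replacer liver, against 150 to 435 in milk replacer parenchyma. The higher shares in the liver therefore do not show a difference from the parenchyma. miR-130b was above 0 in 28 of 48 libraries, miR-301b in 11 and miR-301a in 6. By mean level among the 524 miRNAs, miR-130a ranked 227 in the liver, 233 in the parenchyma and 186 in the fat pad, which places it among miRNAs of intermediate abundance.

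With feeding, miR-130a differed in the fat pad, where its level was lower in ad libitum samples than in both other groups. The normalized count in the 6 ad libitum fat pads was 130 at the lowest, 139 at the median and 157 at the highest. In the 6 restricted fat pads it was 228 at the lowest, 286 at the median and 351 at the highest. The 4 control fat pads had 224, 226, 274 and 291. All ad libitum samples lay below all restricted and all control samples, while restricted and control samples overlapped. The ad libitum samples were also close to each other, with a mean of 142 ± 10.3 (SD, n = 6), against 292 ± 41.7 in the restricted (n = 6) and 254 ± 34.1 in the control samples (n = 4).

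**Figure D1:**
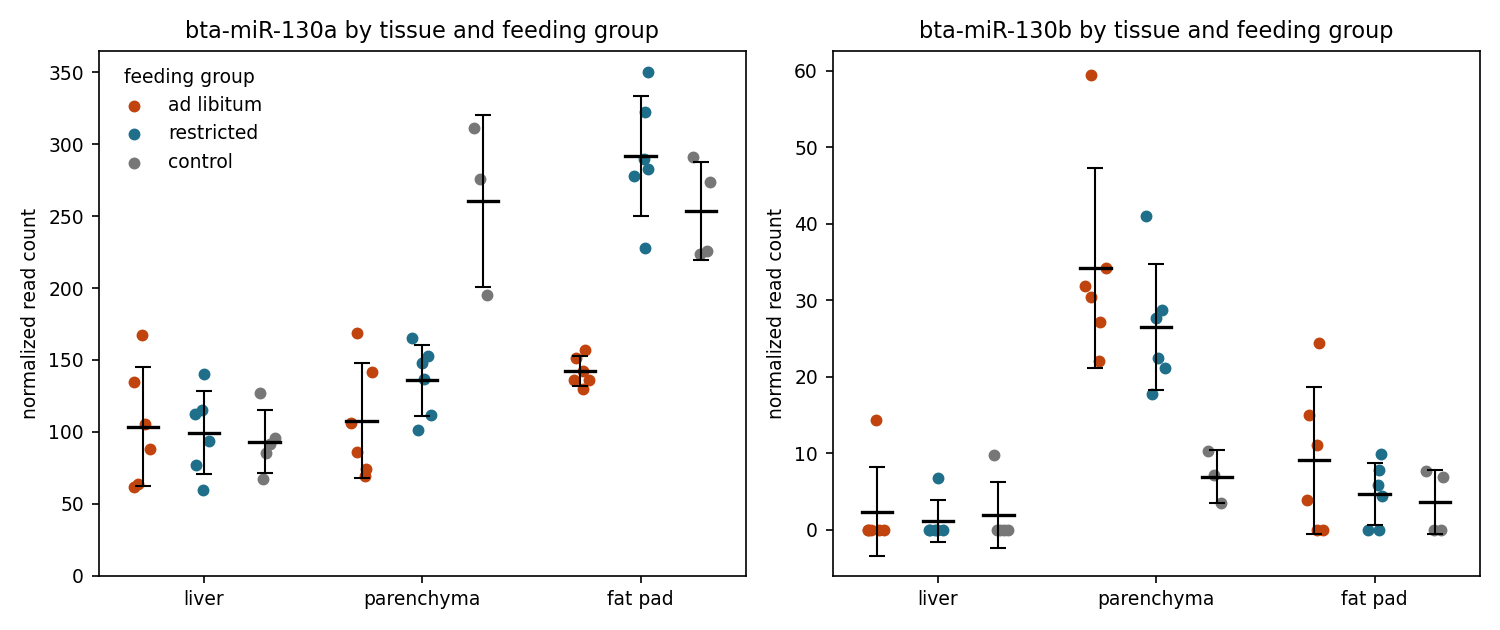
Normalized read count of miR-130a (left) and miR-130b (right) in each library, by tissue and feeding group. Points are libraries, horizontal lines are means and bars are 1 SD. In the fat pad the ad libitum points of miR-130a (130 to 157) lie below all restricted points (228 to 351), and miR-130b is highest in milk replacer parenchyma (17.7 to 59.5).

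The log2 fold change of miR-130a in the fat pad, ad libitum over restricted, was -1.02 (SE 0.13, adjusted p = 0.000115 by limma), the smallest p-value of the 301 miRNAs tested. In this comparison 16.6% of the miRNAs tested passed, 29 of them higher and 21 lower in ad libitum samples. Ad libitum over control gave -0.83 (SE 0.14, adjusted p = 0.000777 by limma), where 22.3% of the miRNAs passed. Both comparisons use the same 6 ad libitum samples. Restricted over control gave 0.20 (SE 0.14, adjusted p = 0.429 by limma, 95% interval -0.10 to 0.50), where 4.32% passed. The milk replacer groups averaged against control gave -0.31 (SE 0.13, adjusted p = 0.111 by limma), where 11% passed.

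Leaving out each fat pad sample in turn gave -1.09 to -0.97 for ad libitum over restricted, and the change passed each time. With each library rescaled to the same sum it was -0.86 (adjusted p = 0.000189 by limma). The median of all miRNAs tested was -0.02 over 301 miRNAs before and 0.14 over 251 after rescaling. With no filter, over 416 miRNAs each time, that median was 0.05 before and 0.14 after. The reads behind the values were 69 to 315 for miR-130a in ad libitum and 278 to 631 in restricted fat pads, with libraries of 2123962 to 8588233 and 4213224 to 9522666 estimated reads.

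The cell type markers were read in the same comparison. Of 27 markers tested, 2 passed (7.41%), against 16.6% of all miRNAs tested. Of 3 adipocyte-linked markers, miR-378 was higher in ad libitum fat pads (log2 fold change 0.83, adjusted p = 0.0306 by limma), and the 3 summed to 59624 to 86229 in ad libitum and 30596 to 68192 in restricted samples. Of 3 striated muscle markers 2 were tested and miR-133a was lower in ad libitum samples, with sums of 546 to 2473 and 586 to 3161 in ad libitum and restricted samples. None of the 5 smooth muscle and stromal markers passed. Their mean log2(value + 1), however, was 15.36 to 15.54 in ad libitum and 15.56 to 15.79 in restricted fat pads, without overlap, while their sums overlapped, at 470972 to 657113 in ad libitum and 468974 to 771236 in restricted samples. None of the endothelial, immune, erythroid, hepatocyte or epithelial markers tested passed, and 4 of 10 epithelial markers (miR-141, miR-429, miR-96 and miR-375) were listed at 0 in all 12 samples. The part of these markers in the difference of miR-130a was not tested.

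**Figure D2:**
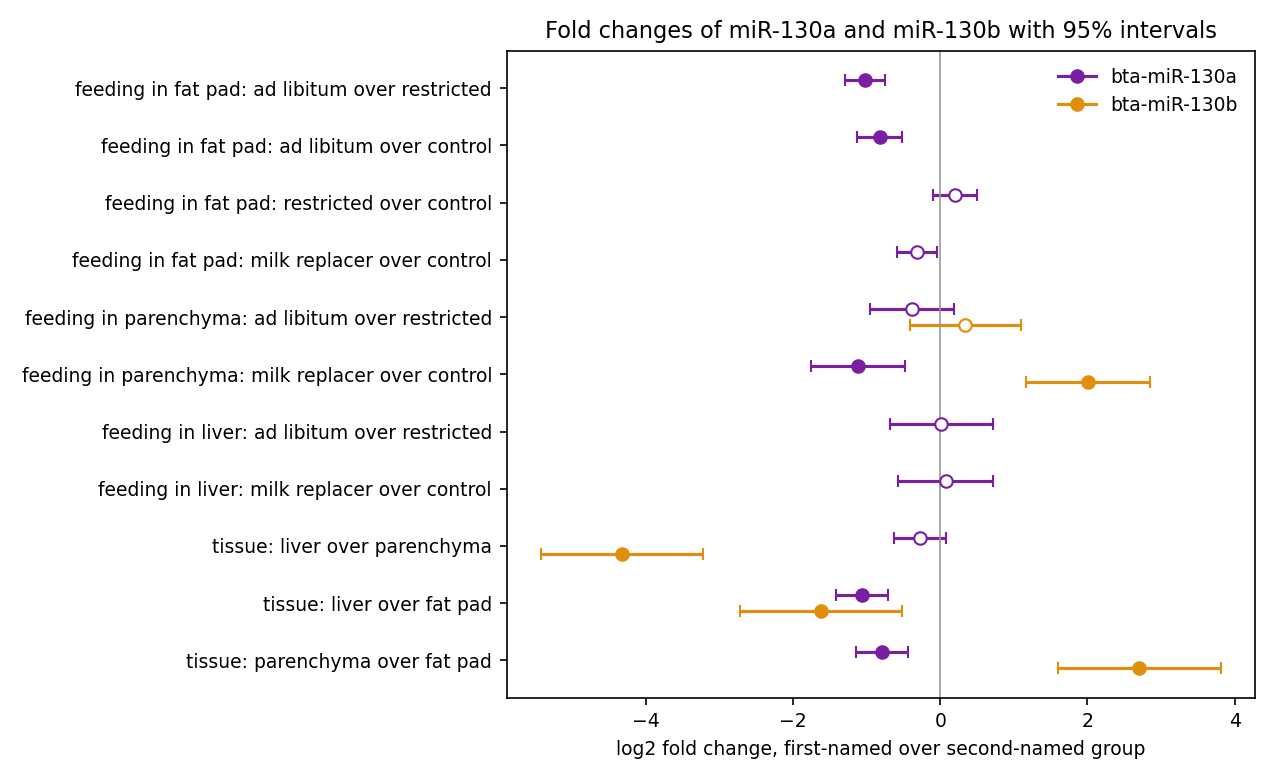
log2 fold change of miR-130a (purple) and miR-130b (orange) on the log2(value + 1) scale, with bars for the 95% confidence interval from limma. Filled points passed an adjusted p of 0.05 and open points did not, and miR-130b was not tested in liver or fat pad feeding fits because of its low level. The interval of miR-130a in the fat pad, ad libitum over restricted, runs from -1.29 to -0.75, while both liver intervals of miR-130a cross 0.

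In the parenchyma miR-130a did not pass between ad libitum and restricted feeding. Ad libitum parenchyma had 69.1 at the lowest, 96.2 at the median and 169 at the highest, and restricted parenchyma had 101, 142 and 165. The groups overlapped, and the log2 fold change was -0.39 (SE 0.27, adjusted p = 0.980 by limma, 95% interval -0.96 to 0.18). In this comparison 0% of 339 miRNAs passed by limma, and 0 had an unadjusted p under 0.05.

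In the liver miR-130a was at similar levels in the 3 feeding groups. Ad libitum liver had 62.0, 96.8 and 167 at the lowest, median and highest, and restricted liver had 59.5, 103 and 140. The 5 control livers had 67.1, 85.1, 91.3, 96.0 and 127. The groups overlapped throughout. The log2 fold change was 0.02 for ad libitum over restricted (SE 0.34, adjusted p = 1.0 by limma, 95% interval -0.69 to 0.72), where 0.324% of miRNAs passed, and 0.08 for milk replacer over control (SE 0.31, adjusted p = 0.912 by limma), where 6.8% passed. With intervals this wide, a change that lies within them was not detectable in the liver.

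The ad libitum over restricted change of miR-130a was also set against itself in the 3 tissues. The test of a difference between tissues gave F = 4.85 with an unadjusted p = 0.0125 and an adjusted p = 0.538 by limma over 345 miRNAs. In that test 0% of miRNAs passed by limma, with 18 at an unadjusted p under 0.05. The difference of the fold changes between liver and fat pad was 1.04 (SE 0.34, adjusted p = 0.199 by limma), and that between parenchyma and fat pad was 0.64 (SE 0.34, adjusted p = 1 by limma). The lower level with ad libitum feeding is therefore not shown to differ between the fat pad and the other tissues.

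Against the control diet, miR-130a and miR-130b differed in opposite directions in the parenchyma. miR-130a in milk replacer parenchyma had 69.1 at the lowest, 124 at the median and 169 at the highest, while the control samples had 195, 276 and 311 (replicates 18, 2 and 1). All milk replacer samples lay below all control samples. The log2 fold change, milk replacer over control, was -1.12 (SE 0.30, adjusted p = 0.00566 by limma), where 45.4% of the 339 miRNAs tested passed. With each library rescaled to the same sum and the filter kept, the change still passed. Rescaling with no filter, a setting added after seeing the data, gave -0.78 (adjusted p = 0.0754 by limma), which did not pass.

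miR-130b, whose gene lies next to that of miR-301b, was higher in milk replacer parenchyma, with 17.7 at the lowest, 28.2 at the median and 59.5 at the highest (40 to 121 reads). The control parenchyma had 3.47, 7.13 and 10.3, from 6, 14 and 21 reads in replicates 2, 1 and 18. The groups did not overlap, and the log2 fold change was 2.01 (SE 0.40, adjusted p = 0.000523 by limma). Leaving out each sample in turn, the control samples among them, gave 1.64 to 2.31 for miR-130b and -1.32 to -0.98 for miR-130a, and both passed each time.

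Of 34 cell type markers tested in this comparison, 11 were higher and 9 lower in milk replacer parenchyma (58.8%), against 45.4% of all miRNAs tested. All 10 epithelial markers were higher in milk replacer parenchyma, where they summed to 61371 to 110903, against 92.5 to 421 in control parenchyma, and miR-429 and miR-375 were listed at 0 in all 3 control samples. Both endothelial miR-126 arms were lower in milk replacer parenchyma, with sums of 52569 to 106702, against 172748 to 426786 in control parenchyma. Of 5 smooth muscle and stromal markers 1 was higher and 2 were lower, and their sums were 356398 to 484879 in milk replacer and 597848 to 930599 in control parenchyma. The 3 adipocyte-linked markers did not pass, with sums of 927 to 16483 in milk replacer and 8670 to 85406 in control parenchyma. Of the other lists, 2 of 5 immune, 2 of 4 hepatocyte and 1 of 3 erythroid markers were lower in milk replacer parenchyma. None in these lists was higher, whereas of all 339 miRNAs tested 102 were higher and 52 lower. The part of the markers in the changes of miR-130a and miR-130b was not tested, and the control diet and the content of these samples cannot be told apart.

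**Figure D3:**
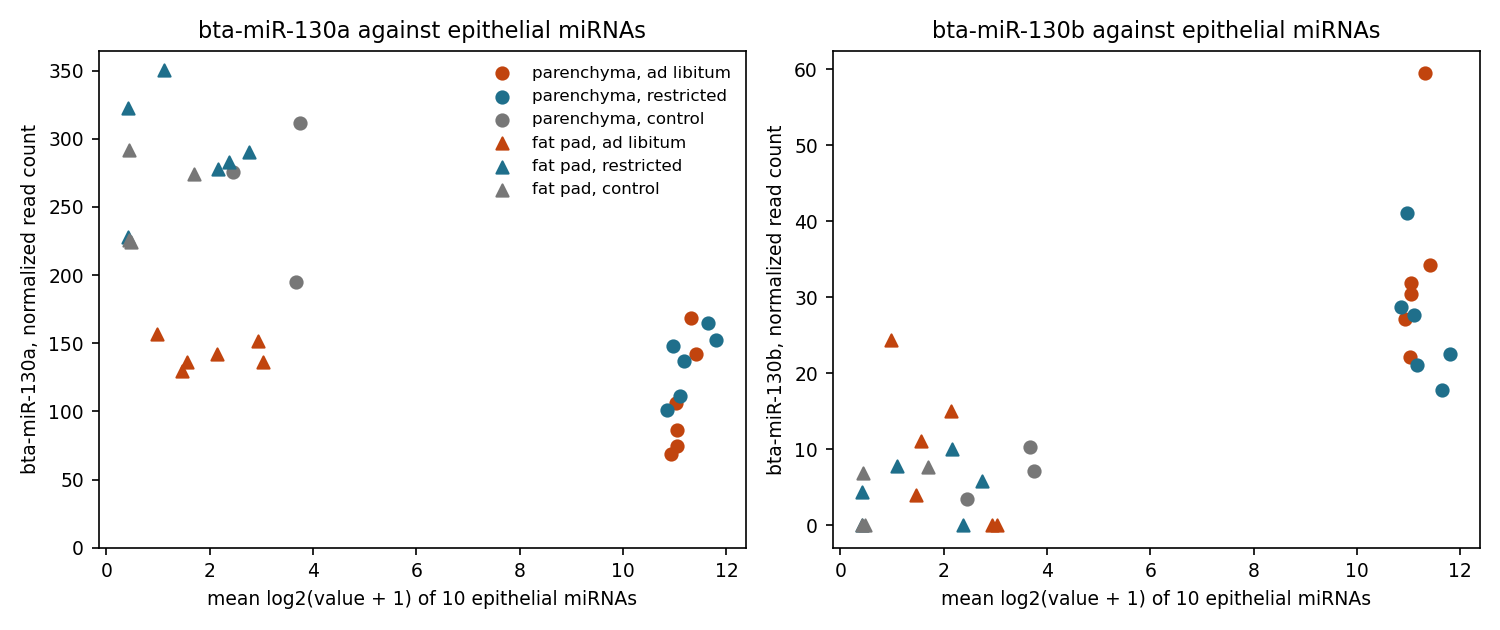
Normalized read count of miR-130a (left) and miR-130b (right) against the mean log2(value + 1) of 10 epithelial miRNAs in the mammary libraries. Circles are parenchyma, triangles are fat pad, and colours are feeding groups. The milk replacer parenchyma circles lie at 10.85 to 11.81 on the horizontal axis, and the 3 control parenchyma circles lie apart from them at 2.46 to 3.76, beside the fat pad.

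On the vertical axis of the plot against epithelial miRNAs, the control parenchyma overlapped part of the fat pad for both members. Its miR-130a values of 195 to 311 overlapped the restricted and control fat pads (224 to 351) and lay above the ad libitum fat pads (130 to 157), and its miR-130b values of 3.47 to 10.3 lay within the fat pad range of 0 to 24.4.

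The test of a difference between tissues in the change with milk replacer gave F = 6.11 for miR-130a (adjusted p = 0.0143 by limma), with 39.7% of 345 miRNAs past the threshold. The fold change was 1.20 higher in the liver than in the parenchyma (SE 0.34, adjusted p = 0.00404 by limma), while the difference of parenchyma minus fat pad was -0.81 (SE 0.36, adjusted p = 0.0880 by limma). With each library rescaled to the same sum the F value was 2.38 and its adjusted p 0.191, which did not pass. Nor did it pass without control parenchyma replicate 1 (F = 3.88, adjusted p = 0.0620 by limma) or with the label number as a block (F = 4.13, adjusted p = 0.0641 by limma), so the difference between tissues rested on that library and on these settings. For miR-130b F was 1.68 (adjusted p = 0.329 by limma), which passed with a pseudocount of 10 (F = 5.03, adjusted p = 0.0269 by limma) and with rescaling and no filter (F = 5.93, adjusted p = 0.0219 by limma).

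Across tissues, the order of miR-130a in the milk replacer samples was fat pad, parenchyma and liver. The mean was 102 ± 34.1 in the liver, 122 ± 34.9 in the parenchyma and, at the top, 217 ± 83.5 in the fat pad (SD, n = 12 each). Parenchyma over fat pad gave a log2 fold change of -0.79 (SE 0.17, adjusted p = 0.000125 by limma), where 74.5% of 345 miRNAs passed. Liver over fat pad gave -1.06 (SE 0.17, adjusted p = 1.09e-06 by limma), where 79.4% passed. Liver over parenchyma gave -0.28 (SE 0.17, adjusted p = 0.142 by limma), where 77.7% passed, so these neighbours in the order did not differ beyond their spread. Most miRNAs passed between tissues, so passing here does not set miR-130a apart from the background.

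The scaling of the libraries affected these tissue differences. With each library rescaled to the same sum, parenchyma over fat pad was -0.32 (adjusted p = 0.0616 by limma) and liver over parenchyma was -0.98 (adjusted p = 9.31e-07 by limma). The median of all miRNAs tested shifted from 0.37 to 0.68 and from -0.46 to -0.91 in the same comparisons. The filter kept 345 miRNAs before and 277 after rescaling, so these medians cover unlike sets. With no filter, over 514 miRNAs each time, the medians went from 0.39 to 0.47 and from -0.50 to -0.61. The parenchyma thus lay between liver and fat pad under each scaling, but which of its differences from these tissues passed depended on the scaling. miR-130a was lower in the liver than in the fat pad under each scaling. The feeding groups of the fat pad stood apart in this comparison. Ad libitum parenchyma (69.1 to 169) overlapped ad libitum fat pad (130 to 157), and restricted parenchyma (101 to 165) lay below restricted fat pad (228 to 351).

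miR-130b had another order, with the parenchyma at the top. In the liver it was above 0 in 3 of 17 libraries, with values of 14.3, 9.73 and 6.75 from 6, 8 and 6 reads. It was above 0 in 12 of 12 milk replacer parenchyma samples, with a mean of 30.4 ± 11.2 (SD, n = 12). In the fat pad it was above 0 in 10 of 16 libraries, the highest value being 24.4 in ad libitum replicate 11. Parenchyma over fat pad gave a log2 fold change of 2.71 (SE 0.54, adjusted p = 4.15e-05 by limma), or 1.73 with the values listed at 0 set to 5 reads (adjusted p = 1.49e-07 by limma). Liver over parenchyma gave a fitted value of -4.33 (SE 0.54, adjusted p = 7.19e-09 by limma), which depends on the added count of 1, since most liver libraries were listed at 0. With values listed at 0 set to 5 reads it was -1.21 (adjusted p = 4.66e-05 by limma).

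Most liver libraries were deep enough to show a milk replacer parenchyma level of miR-130b. At the lowest milk replacer parenchyma level, 17.7, 13 of 17 liver libraries and 16 of 16 fat pad libraries would hold 6 or more reads, and at the median level of 28.2 it would be 16 of 17 liver libraries. Between liver and fat pad the depth did not allow an order. Liver over fat pad gave -1.62 (SE 0.54, adjusted p = 0.00726 by limma), but 0.52 (adjusted p = 0.0625 by limma) with values listed at 0 set to 5 reads.

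Within the parenchyma, ad libitum feeding left miR-130b at 22.1, 31.2 and 59.5 (lowest, median and highest) and restricted feeding at 17.7, 25.1 and 41.1. The groups overlapped, with a log2 fold change of 0.34 (SE 0.36, adjusted p = 0.980 by limma, 95% interval -0.42 to 1.10). In the fat pad ad libitum samples had 0, 0, 3.91, 11.0, 15.0 and 24.4, restricted samples 0, 0, 4.36, 5.81, 7.78 and 9.95, and control samples 0, 0, 6.84 and 7.67. The fat pad samples of the 3 feeding groups overlapped, and miR-130b was below the filter there and in the liver, at a mean under 10.

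The 2 rarest members were found almost only in the parenchyma. miR-301a, whose gene lies in SKA2, was above 0 in 4 of 12 milk replacer parenchyma samples, with 15.9 in ad libitum replicate 7 (28 reads) and 2.37 to 3.13 in 3 others (7 to 9 reads). Of the 3 control parenchyma samples, replicate 2 had 24.3 (42 reads), replicate 18 had 4.41 (9 reads) and replicate 1 was listed at 0. It was listed at 0 in all 17 liver and all 16 fat pad libraries. The high values thus came from 1 library in each group.

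miR-301b was above 0 in 10 of 15 parenchyma samples, from 2.04 to 7.93, and in 1 of 16 fat pad samples (2.99, 6 reads), and it was listed at 0 in all 17 liver libraries. Ad libitum parenchyma had 0, 0, 0, 3.21, 3.96 and 7.93, restricted parenchyma had 0, 2.04, 2.73, 2.74, 3.11 and 3.57, and control parenchyma had 0, 3.47 and 4.90. The feeding groups overlapped. Unlike miR-130b from the neighbouring gene, the values of miR-301b in control parenchyma lay within those of milk replacer parenchyma, but with 6 to 15 reads where it was above 0 its level is known poorly.

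Both miR-301 members were below the filter in all fits, and their absence from other tissues could be judged only in part. At the median parenchyma level of miR-301b, 2.74, 0 of 17 liver and 0 of 16 fat pad libraries would hold 6 reads, so a like level was not detectable there. At the highest milk replacer level of miR-301a, 15.9, 12 of 17 liver and 16 of 16 fat pad libraries would hold 6 or more reads. That level came from 1 library. The 3 others with reads, at 2.37 to 3.13, lay below the value of 5 reads in each liver library (4.73 to 31.0). They also lay below it in most fat pad libraries, so such a level was mostly not detectable there.

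**Figure D4:**
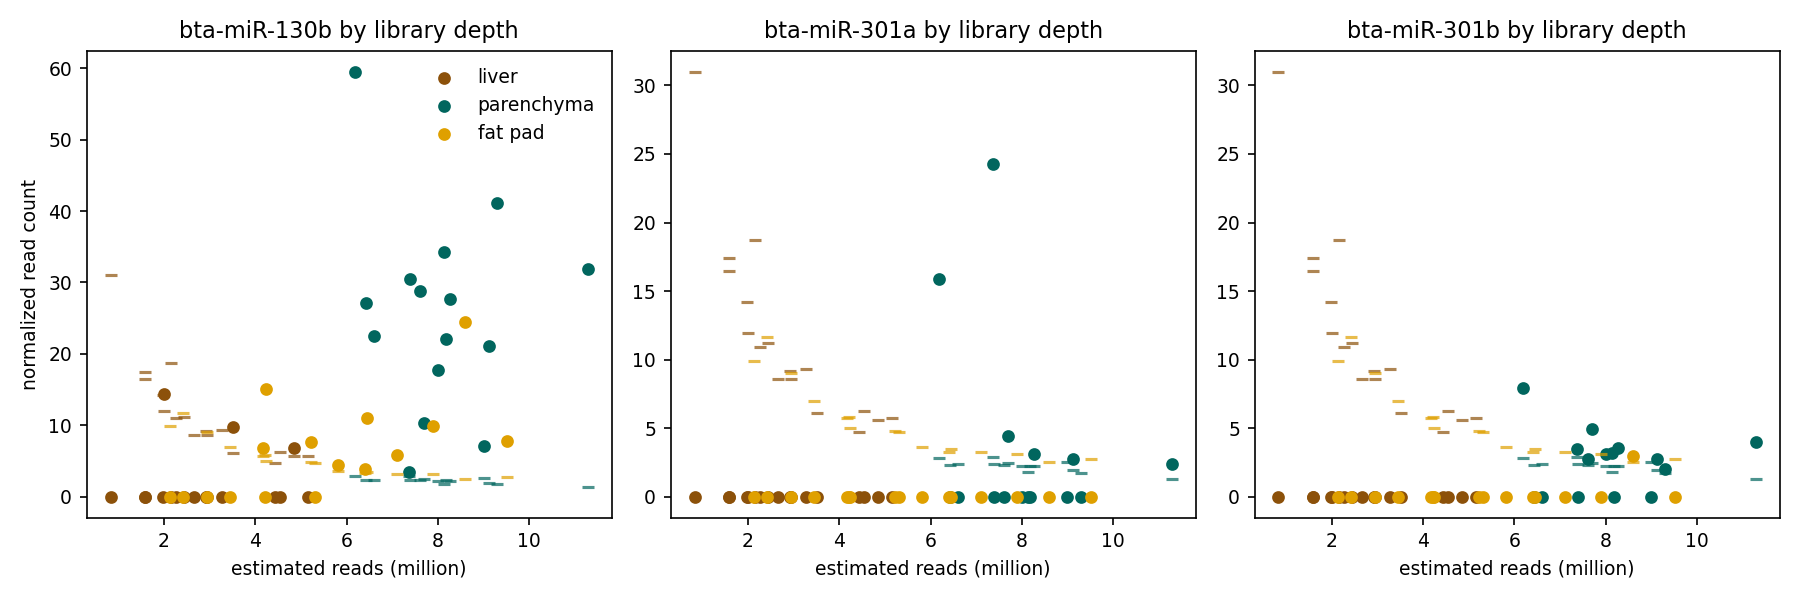
Normalized read count of miR-130b, miR-301a and miR-301b in each library against its estimated miRNA reads (axis in units of 1000000), with tissues in colour. Dots are the values and short dashes mark the value of 5 reads in that library, the most that a value listed at 0 can hold. Milk replacer parenchyma dots of miR-130b (17.7 to 59.5) lie above the dashes of most liver libraries. The 3 control parenchyma dots (3.47 to 10.3) lie lower, among or below those dashes. miR-301b (2.04 to 7.93 where above 0 in parenchyma) lies below many of the liver dashes.

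The ratio of members within a library does not depend on its scaling, but it depends on depth where a member is listed at 0. miR-130b was 10.8% to 40.9% of miR-130a in milk replacer parenchyma (median 26.3%), against 1.26% to 5.28% in control parenchyma, without overlap. Both members already differed without overlap in these libraries, so the ratio is no separate result, and the control libraries were those of low epithelial miRNAs. By feeding, the median was 36.1% in ad libitum (20.9% to 40.9%) and 20.1% in restricted parenchyma (10.8% to 28.4%), with overlap. In the milk replacer fat pad it was 0% to 15.6%, and in the milk replacer liver 0% to 23.1%, with a median of 0% in the liver. A ratio of 0% stands for a miR-130b value listed at 0, which may hold up to 5 reads. In the milk replacer liver miR-130a itself had 21 to 92 reads, which limits what a ratio of 0% shows. In ad libitum replicates 9 and 7 and restricted replicate 13 it had 92, 71 and 75 reads. There even 5 reads of miR-130b would leave the ratio below 10.8%, the lowest in milk replacer parenchyma. The other milk replacer livers at 0% had 21 to 45 reads of miR-130a and do not show a lower ratio. Above 0%, ad libitum replicate 15 had 23.1% and restricted replicate 16 had 7.23%.

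miR-454, the relative from SKA2, did not follow miR-130a in the fat pad. Its normalized count was 40.3 to 70.9 in ad libitum and 29.0 to 54.4 in restricted samples, with a log2 fold change of 0.38 (SE 0.29, adjusted p = 0.385 by limma). As a share of miR-130a it was 26.6% to 52.0% in ad libitum fat pads, against 8.99% to 18.1% in restricted fat pads, without overlap, while control fat pads had 8.0% to 38.4%. These shares hold the same values of miR-130a that differed with feeding. In the parenchyma the share was 22.1% to 32.7% in ad libitum and 11.3% to 29.6% in restricted samples.

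**Figure D5:**
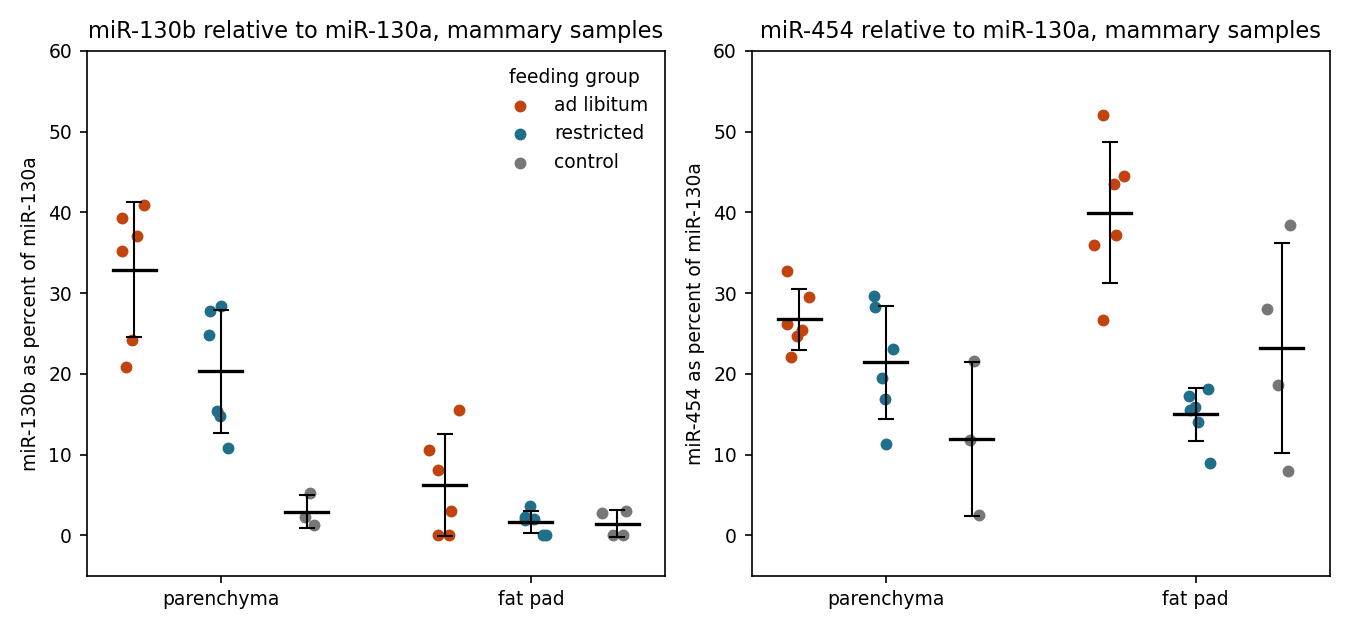
miR-130b (left) and miR-454 (right) as a percent of miR-130a in the same library, for the mammary samples by feeding group. Points are libraries, horizontal lines are means and bars are 1 SD. The miR-454 points of ad libitum fat pad (26.6% to 52.0%) lie above those of restricted fat pad (8.99% to 18.1%).

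Other miRNAs reported in mammals to repress PPARG did not pass between these feeding groups in the fat pad. Of miR-27a, miR-27b and miR-128, 0 of 3 passed by limma between ad libitum and restricted samples, with log2 fold changes of -0.20, -0.11 and 0.47 and adjusted p of 0.406, 0.626 and 0.103. At an unadjusted p under 0.05 it was miR-128 (0.0264). Their median was -0.11, beside -0.02 for all miRNAs tested.

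Of 18 miRNAs linked to the formation of adipocytes, 1 was higher and 3 were lower in ad libitum fat pads and 14 did not pass, where 16.6% of all miRNAs tested passed, so that the count is near the background. The list had a median of -0.01, beside -0.02 for all tested. miR-26a and miR-26b, which promote adipocyte formation in human cells, fell with log2 fold changes of -0.48 (adjusted p = 0.00239 by limma) and -0.68 (adjusted p = 0.00279 by limma). miR-335, from an intron of the imprinted gene MEST, fell by 0.58 on the log2 scale (adjusted p = 0.0279 by limma), with 292 ± 75.8 in ad libitum and 429 ± 63.1 in restricted fat pads (SD, n = 6 each). The member that was higher was miR-378, given above with the markers.

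In the parenchyma, milk replacer over control, 3 of the 18 were higher and 6 lower. Of all 339 miRNAs tested 45.4% passed, 102 higher and 52 lower. The total that passed was near the background, but more of the list was lower, where more of all miRNAs were higher. The list had a median of -0.71, beside 0.13 for all tested. miR-27a (-0.74, adjusted p = 0.0214 by limma) and miR-27b (-0.52, adjusted p = 0.0187 by limma) were lower there, as was miR-130a, in the comparison in which the cell type markers also differed. Between tissues, 3 of the 18 were higher and 12 lower in parenchyma than in fat pad. Of all 345 miRNAs tested 74.5% passed, 159 higher and 98 lower. Again the total that passed was near the background, but most of the list was lower. The list had a median of -1.01, beside 0.37 for all tested.

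The miRNAs most like each member were sought by Pearson's r of log2(value + 1) over all 48 samples, among 343 candidates, as a description that pools tissues, feeding groups and library scaling. For miR-130a these were miR-335 (0.81), miR-10a (0.79), from the HOX clusters, and miR-195 (0.75). For miR-130b they were miR-3957 (0.81), miR-330 (0.78) and miR-877 (0.78). The values for miR-301b were lower, with miR-188 (0.66), miR-17-3p (0.65) and miR-1271 (0.62), and lowest for miR-301a, with miR-1271 (0.50), miR-19a (0.49) and miR-17-3p (0.47). Of the 3 most like miR-130a, only miR-335 passed in the fat pad between ad libitum and restricted feeding, where 16.6% of all miRNAs tested passed. These fat pad samples were among the 48 used to pick the 3, so this is not independent of the choice. The fold change was -0.12 for miR-10a (adjusted p = 0.607 by limma) and -0.17 for miR-195 (adjusted p = 0.425 by limma).

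Within a tissue the members did not vary together in a way that could be told from 0. Of 9 relations between miR-130a, miR-130b and miR-301a over the 12 milk replacer samples of a tissue, 5 could be computed, as miR-301a was constant at 0 in liver and fat pad. For miR-130a and miR-130b in the parenchyma Pearson's r was 0.10 (permutation p = 0.768, adjusted p = 0.768) and Spearman's rho 0.06 (permutation p = 0.869, adjusted p = 0.869). Without the 2 samples farthest from the median of miR-130a, r was 0.14, and within feeding groups it was 0.67 in ad libitum and -0.35 in restricted samples. In the fat pad r was -0.13 (permutation p = 0.670, adjusted p = 0.768) and rho -0.06 (permutation p = 0.853, adjusted p = 0.869), with r = -0.06 without the 2 farthest samples. The lowest adjusted p of the 5 was 0.455, for miR-130b and miR-301a in the parenchyma (r = 0.52, rho = 0.20 with a permutation p of 0.524), and there r was -0.21 without the 2 farthest samples, so that it rested on them.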

How the data were processed

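The authors made small RNA libraries from the total RNA of 48 tissue samples by ligating adaptors, copying into cDNA and amplifying. The submitters' processing notes list DESeq2, Trim Galore, FastQC and bcl2fastq, with no version. The study's methods name miRBase and a UMD assembly of the cattle genome for a comparison of miRNA programs, but do not say that the deposited values were made so. For these values, the program, build and database were not given in the sources used here. What the authors deposited is a score for 524 miRNAs, read counts divided by a size factor per library. The lines of the table are quoted as a whole, so the unit rests on the values: every value of each of 48 libraries was a whole multiple of 1 step, within 0.01. The deposited columns of a mean, fold changes and p-values were not used. Each of 109 pairs of samples within a group differed by more than counting error.

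Groups came from the labels. limma 3.58.1 (R 4.3.3) was fitted to log2(value + 1) with a variance trend. miRNAs with a mean under 10 in a fit were left out of it, with Benjamini-Hochberg adjustment and a threshold of 0.05. Tissues were compared on 36 milk replacer samples, feeding groups within each tissue, and interactions on all 48 samples. Relations were tested with 100000 permutations, two-sided, in Python 3.11.15 with scipy 1.17.1. Both scripts were tested on simulated data. Alternatives were a pseudocount of 10, no filter, libraries rescaled to a sum of 1000000, a replicate block, all 48 samples and each sample left out. Added after seeing the data were values listed at 0 set to 5 reads, fits without control samples, rescaling with no filter, each milk replacer group against control in the fat pad, and, for the interactions, the replicate block and each sample left out. Named miRNAs were the members, miR-454, miRNAs that repress PPARG or are linked to adipocyte formation, cell type markers, and the 3 most like each member. The copy with the highest mean stands for numbered copies such as miR-378. miR-454 was taken by name, as mature sequences were not used here. The members and lists were chosen with earlier results of these data known. Intervals of the fits cover the spread between samples, and reads from PCR are not independent molecules.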

Additional observations from a re-analysis of the deposited data

Results flagged for a closer look

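For 6 pairs of a member and a group, a library stood far from the others, among 21 pairs of a member and a group of 4 to 6 samples that were checked. Chance flags about 1 in 20 groups, and in a group otherwise listed at 0 any value above 0 is marked. miR-130b was at 14.3 in liver ad libitum replicate 15, at 6.75 in liver restricted replicate 16 and at 9.73 in liver control replicate 18, with 0 in all other samples of each group. miR-130b was at 59.5 in parenchyma ad libitum replicate 7, where the others had 22.1 to 34.2. In the same library miR-301a was at 15.9, where the others had 0 to 2.37. miR-301b was at 2.99 in fat pad ad libitum replicate 11 and at 0 in the other 5 samples. The change of miR-130a with milk replacer over control differed between tissues by limma's test of that difference (F = 6.11, adjusted p = 0.0143), with the control parenchyma samples of low epithelial miRNAs in it. Without control parenchyma replicate 1 it was 3.88 and did not pass (adjusted p = 0.0620 by limma).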

How the results depend on the processing

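With a pseudocount of 10, 19 of 20 member results kept their direction and side of the threshold, and without the filter 20 of 20 did. The interaction of miR-130b with milk replacer passed with a pseudocount of 10 (F = 5.03) and with rescaling and no filter (F = 5.93). Rescaling each library to a sum of 1000000 gave, for miR-130a, liver over parenchyma -0.98 (passed), parenchyma over fat pad -0.32 (not passed), milk replacer over control in the liver -0.15 (reversed) and the interaction with milk replacer F = 2.38 (not passed). With no filter as well, these were -0.98, -0.32, -0.15 and F = 2.34, and milk replacer over control in the parenchyma was -0.78 (not passed). On all 48 samples liver over parenchyma of miR-130a was -0.68 and passed. With values listed at 0 set to 5 reads, liver over fat pad of miR-130b was 0.52 (reversed). With 1 sample left out, ad libitum over restricted of miR-130a ranged in the liver from -0.14 to 0.14 and milk replacer over control from -0.033 to 0.19. Liver over parenchyma of miR-130a ranged from -0.38 to -0.19 and passed only without replicate 6 (-0.38, adjusted p = 0.0475 by limma). The interaction of miR-130a with milk replacer ranged from 3.88 to 7.34 and did not pass without control parenchyma replicate 1 (adjusted p = 0.0620 by limma). The other results of miR-130a and miR-130b that were tested kept their side of the threshold with each sample left out. The cause of these changes was not tested. The label numbers recur across tissues, but same-numbered samples correlated at -0.10 to 0.46 between parenchyma and fat pad (8 of 12 over 0.1) and lower in the other pairs of tissues, so not every pair was correlated and the numbers were not taken as a pairing. In each pair of tissues 5 of 12 samples correlated best with their own number within the feeding group, a hint from the data and not from the labels. With the number as a replicate block, 9 of 10 tissue and interaction results kept their call, such as -0.79 for miR-130a in parenchyma over fat pad (adjusted p = 0.00109 by limma), while the interaction of miR-130a with milk replacer did not pass (F = 4.13). A count model had been planned only if an automated check of the file accepted whole reads. That check could not split the quoted lines, and the model was not run. The liver libraries were the shallowest, which limits miR-130b and both miR-301 members there.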
